A study of Mus musculus with 11 samples.

Results

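Transcript levels of 7 genes of the Dynlt1 and Tmem181 families, which lie close together on chromosome 17, were described in whole mouse testis, out of 24411 genes in the count table. The families comprised 4 Dynlt1 copies (Dynlt1a, Dynlt1b, Dynlt1c and Dynlt1f) and 3 Tmem181 copies (Tmem181a, Tmem181b-ps and Tmem181c-ps). They were chosen because the read counts of Dynlt1b and Tmem181b-ps were both much lower in Irp1-/- than in WT testes, so that contrast is given for the copies as a description without a test. The study asked how loss of iron regulatory protein 1 affects spermatogenesis. Testes of male mice aged 20 weeks came from 4 WT mice on the C57Bl/6J background and 4 Irp1-/- mice with a global knockout of Aco1 on that background. They also came from 3 Irp2-/- mice, labelled as knockouts of Irp2 (gene Ireb2), whose allele the methods do not give. WT animals were littermates from heterozygous Irp1 interbreeding according to the methods, and how the Irp2-/- mice were bred was not stated there. All cells of an Irp1-/- mouse lack Irp1. Whole testis RNA mixes germ cells with Sertoli, Leydig and other somatic cells, so fewer cells of a type and less RNA per cell cannot be told apart.

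Dynlt1, also known as Tctex1, is a light chain of cytoplasmic dynein, the motor that carries cargo toward the minus ends of microtubules, and it was first described from the mouse t-complex region as a gene expressed strongly in male germ cells. Tmem181 encodes a membrane protein with several membrane-spanning segments. The suffix -ps marks a copy annotated as a pseudogene.

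Where they align, the copies are nearly the same in sequence, which bears on how reads can be assigned to them. In the GENCODE M21 annotation of GRCm38 the coding sequence of Dynlt1 has 342 bases and was identical in Dynlt1a, Dynlt1c and Dynlt1f. Dynlt1b differed from these by 1 base, C21A, counted from 1 at the A of the start codon with the base of Dynlt1c first. It lies in codon 7, leaves the amino acid unchanged (TCC to TCA) and maps to position 6430232 of chromosome 17. The first 300 coding bases of Dynlt1b, the copy with the large difference, and the first 60 of the other copies are shown 5′ to 3′, spliced over exons, with base 21 in capitals.
Dynlt1b: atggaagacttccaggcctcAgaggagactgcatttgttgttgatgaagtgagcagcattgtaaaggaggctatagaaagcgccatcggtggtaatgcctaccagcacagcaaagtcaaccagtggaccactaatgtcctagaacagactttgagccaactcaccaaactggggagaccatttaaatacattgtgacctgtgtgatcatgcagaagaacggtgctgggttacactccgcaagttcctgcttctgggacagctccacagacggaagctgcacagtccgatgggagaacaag
Dynlt1a: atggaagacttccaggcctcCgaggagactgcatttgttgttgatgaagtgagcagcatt
Dynlt1c: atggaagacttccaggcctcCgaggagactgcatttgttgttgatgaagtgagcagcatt
Dynlt1f: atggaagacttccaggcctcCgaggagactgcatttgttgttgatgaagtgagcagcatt

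Over the best aligned stretch of each pair of first-listed transcripts, the Dynlt1 copies were 98.57 to 99.87% identical. These stretches were 771 to 2550 bases long, in transcripts of 771 to 3321 bases. Tmem181a, with a transcript of 4405 bases, and Tmem181b-ps were within that range, at 99.36% over 1415 aligned bases. Tmem181c-ps was 95.89% identical to each of them over 1386 aligned bases. The 60 bases shown are the stretch of Tmem181a coding sequence, aligned without gaps in the 3 copies, with the most differing positions. Tmem181a and Tmem181b-ps differ in it at 2 positions and Tmem181c-ps from each at 1. It thus does not rank the copies by the identities above. The 2 positions at which the copies differ are in capitals.
Tmem181a: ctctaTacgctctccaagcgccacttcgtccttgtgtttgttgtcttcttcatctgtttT
Tmem181b-ps: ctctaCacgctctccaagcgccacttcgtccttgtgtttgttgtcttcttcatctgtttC
Tmem181c-ps: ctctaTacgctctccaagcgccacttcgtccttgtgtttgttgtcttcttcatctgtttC

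Along chromosome 17 of GRCm38 the copies followed each other in a mixed order. Tmem181a lies at 6256860 to 6308314 on the plus strand and overlaps the end of Dynlt1a, at 6306340 to 6317500 on the minus strand. Dynlt1b, at 6430112 to 6436296 on the plus strand, is followed by Tmem181b-ps, at 6438524 to 6467022 on the minus strand. The pair with low counts in Irp1-/- testes is thus made of neighbours whose 3′ ends face each other. In the RefSeq annotation their spans overlap, since Dynlt1b ends at 6440500 and Tmem181b-ps starts at 6439002. Dynlt1c lies at 6601671 to 6609774 on the plus strand, Tmem181c-ps at 6613753 to 6639790 and Dynlt1f at 6646602 to 6655900, both on the minus strand. GENCODE annotates the 4 Dynlt1 copies and Tmem181a as protein-coding, Tmem181b-ps as a transcribed unprocessed pseudogene and Tmem181c-ps as an unprocessed pseudogene.

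**Figure D1:**
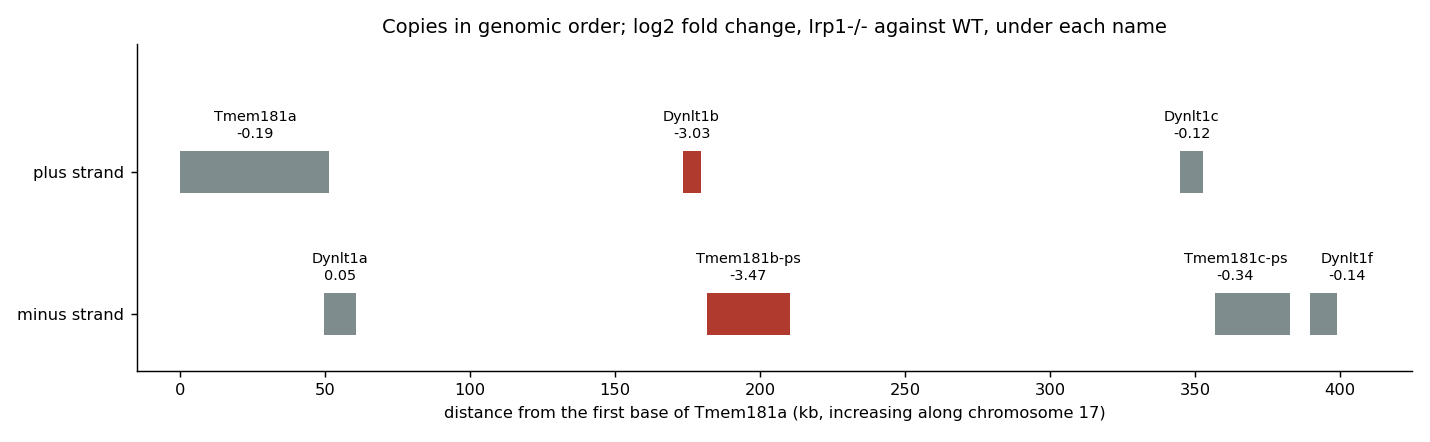
Map of the 7 copies, drawn to scale in kb from the first base of Tmem181a, with plus strand genes above and minus strand genes below; the number under each name is the log2 fold change, Irp1-/- against WT. Dynlt1b and Tmem181b-ps, in red, are adjacent and carry fold changes of -3.03 and -3.47, while the grey copies on either side lie between -0.34 and 0.05.

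The share of sequence that belongs to 1 copy differed between the copies. Of the 50-base windows in the Dynlt1b transcript, 121 of 722 (16.76%) occurred in no other copy, and 21 of its 293 coding windows did, all of them over base 21. The share was 6.26% in Dynlt1c, 6.93% in Dynlt1f and 41.08% in Dynlt1a, whose transcript is longer. It was 14.74% in Tmem181b-ps, 27.67% in Tmem181c-ps and 61.91% in Tmem181a. The counts of a single copy are therefore uncertain to the extent that the authors' counting divided or dropped shared reads, and family sums are given beside them. The windows stand for single 50-base reads on GENCODE transcripts. The study sequenced such reads in pairs and counted on the iGenomes annotation, so the shares are only a guide to what could be assigned. A processed pseudogene on chromosome 6, Dynlt1-ps1, has the coding sequence of Dynlt1a, Dynlt1c and Dynlt1f and was not a row of the table analysed here.

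**Figure D2:**
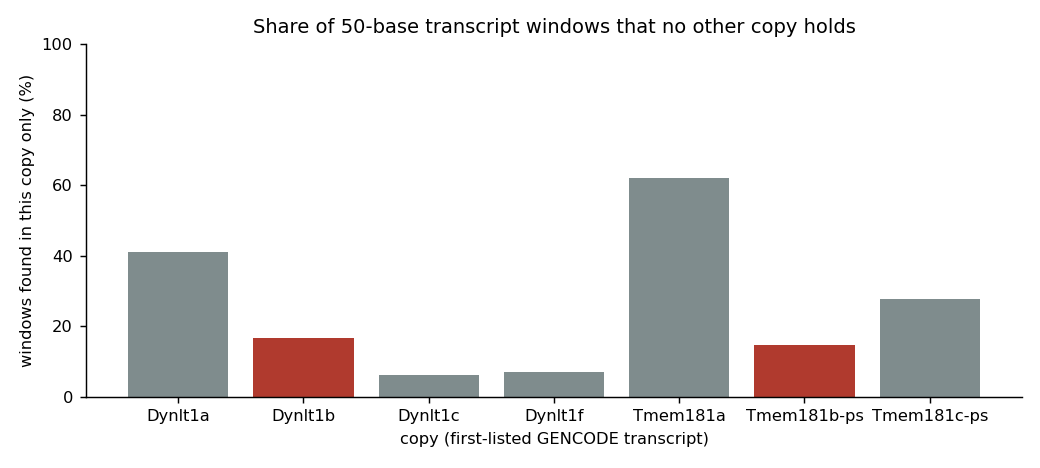
Percentage of 50-base windows of each copy's first-listed transcript that no other copy holds (bars from 0). Dynlt1c and Dynlt1f have the smallest shares, 6.26% and 6.93%, and Tmem181a the largest, 61.91%.

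Libraries held 15902473 to 22451417 counts, and pairs of replicates differed by more than sampling noise (chi-square per degree of freedom 1.97 to 6.75). Values are CPM, the share of a sample's counts that fell on a gene, scaled to the same total in every sample. The knocked-out genes followed the labels. Ireb2, which encodes Irp2, had 131.9 to 141.5 CPM in WT and 61.29 to 64.42 CPM in Irp2-/- samples, a log2 fold change of -1.17 with an adjusted p of 2.84e-13 in edgeR. Aco1, which encodes Irp1, had 9.59 to 12.93 CPM in WT and 7.98 to 9.19 CPM in Irp1-/- samples, a log2 fold change of -0.45 with an adjusted p of 0.0158 in edgeR. That call was lost without Irp1-/- replicate 6 (adjusted p = 0.0683) or without WT replicate 2 (0.0711), 3 (0.052) or 4 (0.075).

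Dynlt1b was the second most abundant Dynlt1 copy in WT testes by CPM. Its level was 201.9, 299.2, 283.6 and 209.1 CPM in WT replicates 1 to 4. In Irp1-/- replicates 1, 2, 6 and 7 it was 33.89, 30.47, 26.77 and 31.76 CPM. In Irp2-/- replicates 1 to 3 it was 413.9, 276.2 and 344.5 CPM. Every Irp1-/- sample lay far below every other sample, while the Irp2-/- samples overlapped the WT samples. The means were 248.5 ± 50.07 CPM in WT (SD, n = 4), 30.72 ± 2.99 CPM in Irp1-/- (SD, n = 4) and 344.9 ± 68.89 CPM in Irp2-/- testes (SD, n = 3). The Irp1-/- mean was thus 12.36% of the WT mean, an 8.09-fold lower level (log2 fold change -3.03, standard error 0.18).

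Tmem181b-ps, the neighbouring pseudogene copy, had the same order of genotypes at a lower level. It had 15.17, 18.34, 21.76 and 14.65 CPM in WT replicates 1 to 4. In Irp1-/- replicates 1, 2, 6 and 7 it had 1.74, 1.60, 1.31 and 1.70 CPM, which are 26 to 36 counts. In Irp2-/- replicates 1 to 3 it had 22.6, 20.96 and 28.94 CPM. Again no Irp1-/- sample came near a WT sample, and the Irp2-/- samples overlapped WT. The means were 17.48 ± 3.29 CPM in WT (SD, n = 4), 1.59 ± 0.196 CPM in Irp1-/- (SD, n = 4) and 24.16 ± 4.22 CPM in Irp2-/- testes (SD, n = 3). The Irp1-/- level was 9.08% of WT, or 11.01-fold lower (log2 fold change -3.47, standard error 0.143).

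**Figure D3:**
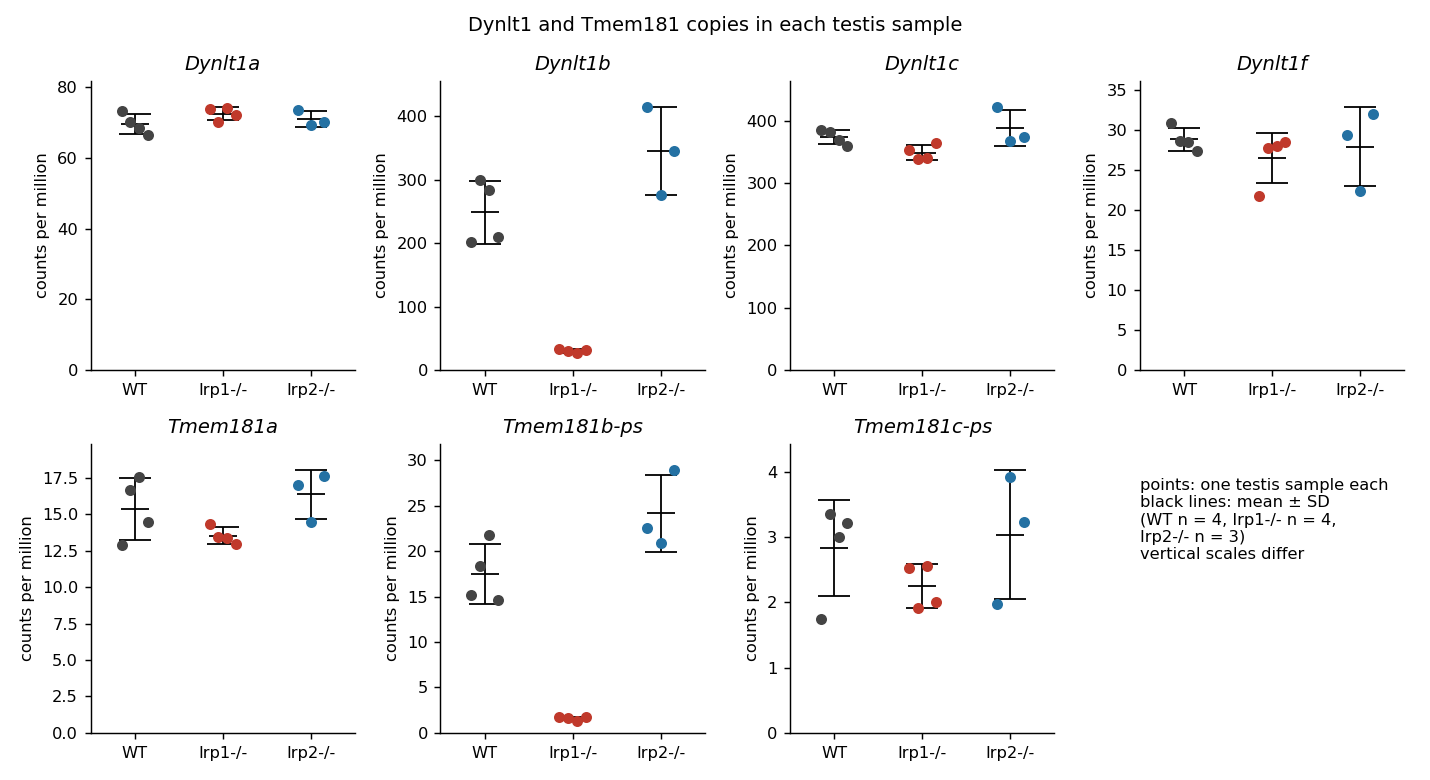
CPM of each copy in each testis sample (points), with the mean and SD in black; vertical scales differ between panels and start at 0. The 4 Irp1-/- samples lie below all others for Dynlt1b (26.77 to 33.89 CPM) and Tmem181b-ps (1.31 to 1.74 CPM), and overlap WT for the other 5 copies.

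The other 5 copies showed no such separation. Dynlt1c, the most abundant copy by CPM, had 359.9 to 384.6 CPM in WT, 337.8 to 363.7 CPM in Irp1-/- and 368.1 to 421.3 CPM in Irp2-/- testes. Dynlt1a had 66.32 to 73.12 CPM in WT, 70.2 to 74.02 CPM in Irp1-/- and 69.28 to 73.47 CPM in Irp2-/- testes. Dynlt1f had 27.42 to 30.89 CPM in WT and 22.43 to 31.97 CPM in Irp2-/- testes. In Irp1-/- testes Dynlt1f had 21.8 CPM in replicate 1 and 27.75 to 28.49 CPM in the other samples. Tmem181a, the protein-coding copy, had 12.87 to 17.55 CPM in WT, 12.95 to 14.31 CPM in Irp1-/- and 14.45 to 17.6 CPM in Irp2-/- testes. Tmem181c-ps stayed low in all genotypes, with 1.75 to 3.36 CPM in WT, 1.92 to 2.56 CPM in Irp1-/- and 1.97 to 3.92 CPM in Irp2-/- testes.

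Against WT, the log2 fold changes of these 5 copies in Irp1-/- testes ranged from -0.34 (Tmem181c-ps) to 0.05 (Dynlt1a). Dynlt1b and Tmem181b-ps, 2 of the 7 copies, lay below WT in every Irp1-/- sample, beside 2.41% of all genes tested. Since the copies were picked on this contrast, nothing is read from that count. The nearest copy outside the pair by fold change was Tmem181c-ps at -0.34 (standard error 0.192), and nothing is read from this gap either.

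Summed over copies, the family levels followed the b copies. The Dynlt1 total was 720.7 ± 53.53 CPM in WT (SD, n = 4), 478.4 ± 13.64 CPM in Irp1-/- (SD, n = 4) and 831.6 ± 101.5 CPM in Irp2-/- testes (SD, n = 3). The Irp1-/- total was 66.37% of WT, and of the difference of -242.4 CPM, -217.7 CPM was that of Dynlt1b. The other Dynlt1 copies together had 435.7 to 464.2 CPM in Irp1-/- and 453.7 to 488.6 CPM in WT testes. These ranges overlap, and the mean of these copies was 447.6 CPM in Irp1-/- against 472.3 CPM in WT testes. The Tmem181 total was 35.69 ± 5.69 CPM in WT (SD, n = 4), 17.36 ± 0.846 CPM in Irp1-/- (SD, n = 4) and 43.56 ± 5.51 CPM in Irp2-/- testes (SD, n = 3). For this family the Irp1-/- total was 48.65% of WT, and the copies other than Tmem181b-ps had 14.97 to 16.84 CPM against 14.62 to 20.55 CPM.

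**Figure D4:**
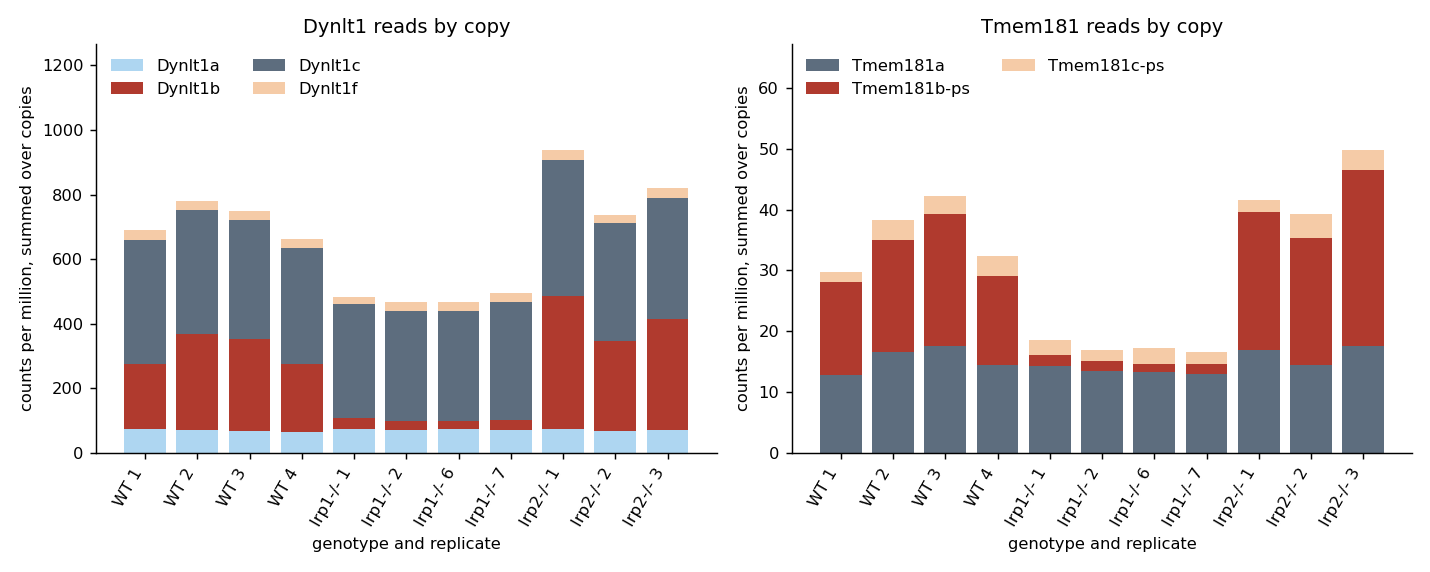
CPM of the Dynlt1 copies (left) and Tmem181 copies (right) stacked for each sample, labelled by genotype and replicate. The red part, Dynlt1b or Tmem181b-ps, is short in the 4 Irp1-/- samples, where the other copies sum to 435.7 to 464.2 CPM (Dynlt1) and 14.97 to 16.84 CPM (Tmem181), against 453.7 to 488.6 CPM and 14.62 to 20.55 CPM in WT.

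As a share of the family, which does not depend on library size, Dynlt1b made up 29.25 to 38.38% of Dynlt1 counts in WT, 5.71 to 7.03% in Irp1-/- and 37.52 to 44.13% in Irp2-/- testes. Tmem181b-ps made up 45.36 to 51.43% of Tmem181 counts in WT, 7.58 to 10.19% in Irp1-/- and 53.3 to 58.13% in Irp2-/- testes. The ratio of Dynlt1b to Tmem181b-ps counts was 13.03 to 16.32 in WT, 18.7 to 20.5 in Irp1-/- and 11.9 to 18.32 in Irp2-/- testes.

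Per kb of GENCODE transcript the order of copies changed. The authors counted on the iGenomes annotation, in which the lengths of the copies may differ, so this order is tentative. In WT testes Dynlt1b led with a mean of 322.3 CPM per kb of its first-listed transcript, ahead of Dynlt1c with 144.4, Dynlt1f with 37.45 and Dynlt1a with 20.92 CPM per kb. Tmem181b-ps had 12.37, Tmem181a 3.49 and Tmem181c-ps 2.05 CPM per kb. Over all annotated exons these gaps were smaller, with 4.175, 2.347 and 2.045 CPM per kb. The order of Dynlt1a and Dynlt1f depended on the length used, since over all annotated exons Dynlt1a had 16.28 and Dynlt1f 7.96 CPM per kb. In Irp1-/- testes Dynlt1b, with 39.84 CPM per kb, was below Dynlt1c, with 134.7 CPM per kb.

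Irp2-/- testes, which the choice of copies did not use, were tested against the WT samples, which it did use. None of the 7 copies passed an adjusted p of 0.05 in edgeR, beside 1.21% of the 16154 genes tested (1522 genes had an unadjusted p under 0.05). Dynlt1b was at 138.8% of WT (log2 fold change 0.45, standard error 0.214, unadjusted p = 0.0855, adjusted p = 0.642, edgeR). Tmem181b-ps was at 138.2% (log2 fold change 0.45, standard error 0.148, unadjusted p = 0.0149, adjusted p = 0.319, edgeR), the only copy with an unadjusted p under 0.05. Without WT replicate 3 it passed (log2 fold change 0.56, adjusted p = 0.0168, edgeR), and over the other alternatives its adjusted p was 0.0507 (DESeq2) to 0.557. The adjusted p of Dynlt1b was 0.449 to 0.845 over its alternatives. The other 5 copies had log2 fold changes of -0.07 to 0.08. None of the 7 lay above WT in every Irp2-/- sample, beside 6.08% of genes tested.

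The family values were compared by exact permutation tests, two-sided, for which 3 samples against 4 cannot go below p = 0.0571. The Dynlt1 total was higher by 110.8 CPM in Irp2-/- testes (exact permutation p = 0.171) and the Tmem181 total by 7.87 CPM (exact permutation p = 0.171). The Dynlt1b share was higher by 6.96 percentage points (exact permutation p = 0.171). The Tmem181b-ps share was 55.26 ± 2.54% in Irp2-/- and 48.89 ± 2.84% in WT testes, with no overlap (exact permutation p = 0.0571, the smallest possible). Adjusted over these 4 tests, each p was 0.171. Without Irp2-/- replicate 1 the difference in Dynlt1 total was 57.63 CPM, and without Irp2-/- replicate 3 that in Tmem181 total was 4.76 CPM.

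The b copies varied widely among the WT and among the Irp2-/- samples. In WT, replicates 2 and 3 were the higher samples and replicates 1 and 4 the lower for Dynlt1b, and the same held for Tmem181b-ps and Tmem181a. The coefficient of variation of Dynlt1b was 20.15% in WT, against a median of 2.89% over 1612 genes within 2-fold of its level, and only 5 of these, Dynlt1b included, varied as much. In Irp2-/- testes it was 19.97%, which 2 of 1193 genes, Dynlt1b included, reached. Tmem181b-ps had 18.8% in WT and 17.45% in Irp2-/- testes, larger than 98.1% and 98.4% of genes at its level. In Irp1-/- testes Dynlt1b had 9.74%, larger than 90.2% of genes at its level, while Tmem181b-ps had 12.38%, below the median of 18.43% at its level. A wide spread was not particular to the b copies, since Dynlt1f had 17.65% in Irp2-/- and 11.9% in Irp1-/- testes, larger than 98.8% and 95.5% of genes at its level. Dynlt1c and Dynlt1a, at 3.04% and 4.14% in WT, lay near the middle of genes at their level.

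None of the 20 flanking genes passed the test, but at the shares over all genes so short a list holds few calls or none. Among the 10 tested genes on each side, from Tulp4, 16.09 kb before Tmem181a, and Sytl3, 2.17 kb after Dynlt1f, outward, 0 of 20 passed the test in Irp1-/- testes (edgeR), beside 1.02% of the 16002 genes tested, 3 had an unadjusted p under 0.05, and DESeq2 also called 0. Their log2 fold changes ranged from -0.37 to 0.24 with a median of -0.01, beside -0.001 over all genes. In Irp2-/- testes 0 of 20 passed in edgeR and in DESeq2, 1 had an unadjusted p under 0.05, and the median was -0.03, beside 0.003 over all genes. No other tested gene lay between the copies. On the whole of chromosome 17, with the copies counted in, 9 of 776 tested genes (1.16%) passed in Irp1-/- testes, beside 1.02% of all genes. Since the copies were picked on this contrast, nothing is read from that count. In Irp2-/- testes 7 of 777 (0.901%) passed, beside 1.21% of all genes.

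**Figure D5:**
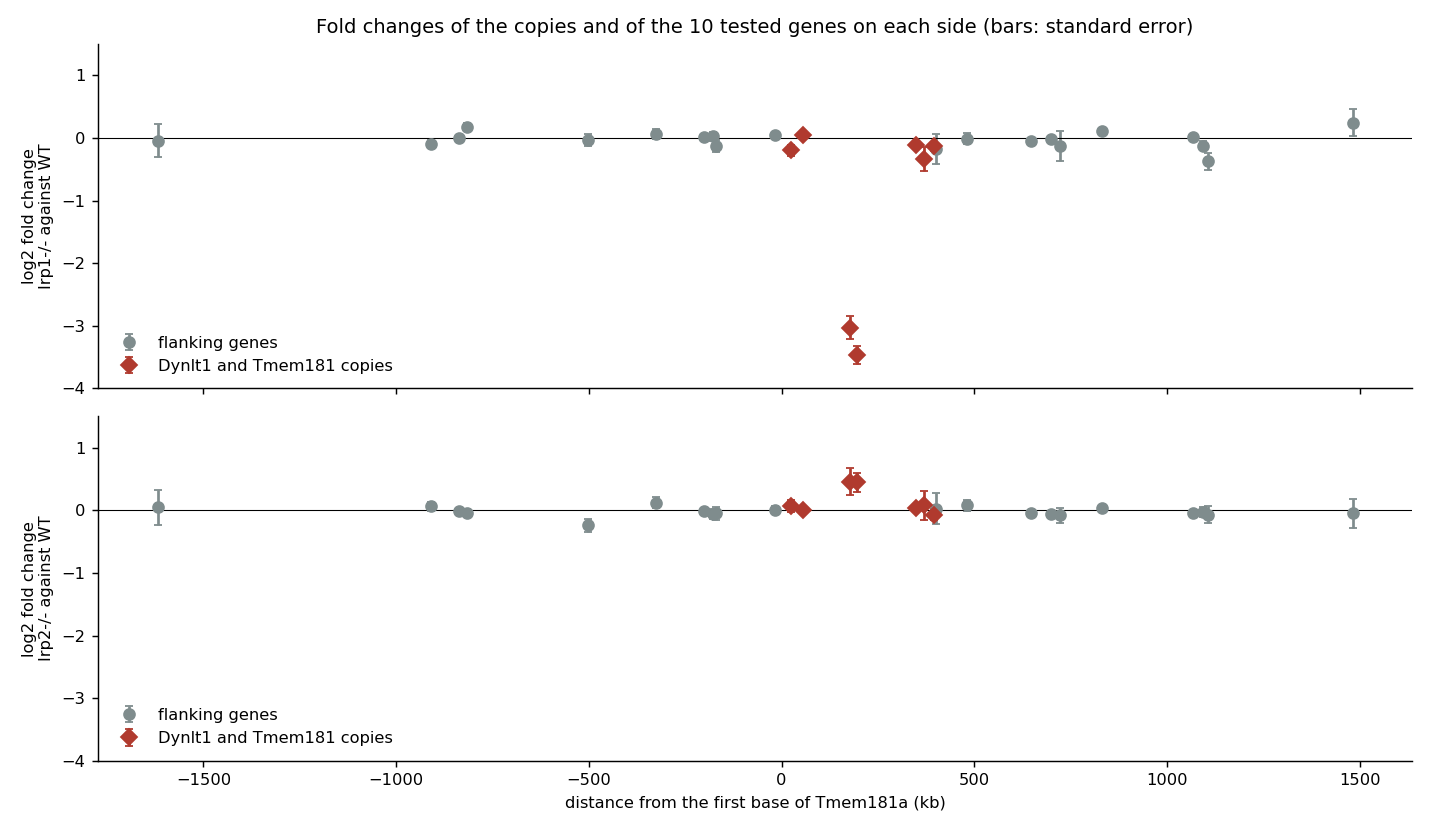
Log2 fold changes with standard errors for the 7 copies (red diamonds) and the 10 tested genes on each side (grey circles), by distance in kb from the first base of Tmem181a; top, Irp1-/- against WT, bottom, Irp2-/- against WT. In the top panel Dynlt1b and Tmem181b-ps stand at -3.03 and -3.47 while flanking genes lie between -0.37 and 0.24.

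Other dynein and dynactin genes were examined because Dynlt1 is a subunit of dynein. Of 31 listed genes 30 were tested, and in Irp1-/- testes 0 passed (edgeR; 2 at an unadjusted p under 0.05), beside 1.02% of all genes tested, with a median log2 fold change of -0.01. The list includes the heavy chain Dync1h1, the light chains Dynll1 and Dynll2, the dynactin subunits Dctn2 and Actr10, and the dynein regulator Pafah1b1, which were its 6 most abundant genes. Dynlt3, the closest relative of Dynlt1 in the list, had a log2 fold change of 0.03 in Irp1-/- and -0.23 in Irp2-/- testes (adjusted p = 0.247, edgeR). In Irp2-/- testes 1 of 30 passed, beside 1.21% of all genes tested, a share at which so short a list holds few calls or none. It was Bicd1, an adaptor that links dynein to cargo. Bicd1 rose from 3.598 ± 0.304 to 7.24 ± 2.12 CPM (log2 fold change 0.98, standard error 0.167, adjusted p = 0.00264, edgeR).

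Germ cell markers were abundant, and no tested marker of any cell type passed in either comparison, beside 1.02% and 1.21% of all genes, so that lists of this length hold few calls or none. Spermatid markers summed to 17240 to 20110 CPM in Irp1-/- and 17510 to 18630 CPM in WT testes, and epididymis markers to at most 0.566 CPM in any sample, with Lcn5 at 0 throughout. Sertoli markers summed to 174.5 to 196.4 CPM in Irp1-/- and 158.7 to 173.3 CPM in WT testes, and blood markers to 37.41 to 52.95 CPM against 22.31 to 36.31 CPM, with Hbb-bs at 0 throughout. These 2 pairs of ranges did not overlap. The share of all genes above WT in every Irp1-/- sample was not computed, so nothing is read from this. Spermatocyte markers (999.1 to 1023 CPM in Irp1-/-, 1007 to 1093 CPM in WT), spermatogonia markers (69.65 to 75.75 and 66.17 to 78.09 CPM), Leydig markers (923.1 to 1107 and 672.3 to 970.4 CPM) and macrophage markers (48.91 to 51.94 and 41.63 to 49.39 CPM) overlapped. In Irp2-/- testes macrophage markers summed to 49.75 to 52.76 CPM and epididymis markers to 0.305 to 0.432 CPM, both above the WT ranges of 41.63 to 49.39 CPM and 0.110 to 0.289 CPM, and the other lists overlapped WT. Among single genes tested, 6.08% lay above WT in every Irp2-/- sample, so nothing is read from these sums either. The part of any of these lists in the Dynlt1b and Tmem181b-ps values was not tested.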

How the data were processed

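RNA of whole testis, enriched for polyadenylated transcripts, was sequenced from 11 samples. The authors deposited raw read counts per gene from an nf-core pipeline run on the mm10 (GRCm38) genome and iGenomes annotation. The methods give standard settings for that pipeline without naming its counting tool. Its usual quantifier estimates counts, so whole numbers could be rounded estimates, and how reads shared by near-identical copies were treated is not stated. The column of Irp1-/- replicate 6 is marked R and all others L, without explanation.

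CPM were computed from the total count of each sample. Genes were tested with edgeR 4.0.16 in R 4.3.3 (TMM normalization, filterByExpr, robust quasi-likelihood test, Benjamini-Hochberg adjustment over all tested genes), using the samples of the 2 genotypes compared. Exact permutation tests used scipy 1.17.1. P-values set differences between genotypes against the spread between these samples. Total counts of 15902473 to 22451417 limit the precision of the lowest copies.

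Gene positions came from RefSeq (GRCm38.p6) by symbol (23191 genes) or synonym (1095 genes), and 125 genes were not placed. Transcript sequences came from GENCODE M21.

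The copies and gene lists were chosen with earlier results of these data known. Named genes were all copies, Aco1 and Ireb2, flanking and dynein genes past the threshold and the 6 most abundant dynein genes. The 5 genes with the highest and the 5 with the lowest correlation with the b copies over 11 samples were also named. Rnaset2b, Dynlt3, Tulp4 and Sytl3 were named after their values were seen. Alternatives were DESeq2 1.42.0, RLE normalization, other count filters, a fit of all 11 samples, a replicate block and leaving out each sample.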

Additional observations from a re-analysis of the deposited data

Results flagged for a closer look

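Among 36 pairings of a measure with the 4 WT or the 4 Irp1-/- samples, 3 held a sample far from the rest. The measures were the level and family share of each copy, the family totals, Aco1 and Ireb2. Chance would give about 1.8 if they were independent, but they share counts. Dynlt1f had 21.8 CPM in Irp1-/- replicate 1, against 27.75 to 28.49 CPM in the other Irp1-/- samples. Its share of Dynlt1 counts in that sample, which rests on the same count, was 4.52%, against 5.74 to 5.97%. Ireb2 had 131.9 CPM in WT replicate 3, against 140.1 to 141.5 CPM in the other WT samples.

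All Irp1-/- samples lay below and all Irp2-/- samples above the WT mean for both b copies. The log2 fold changes against WT differed by 3.48 for Dynlt1b and by 3.92 for Tmem181b-ps. This difference was not tested, because the copies were chosen on the Irp1-/- samples, and both comparisons share the WT samples.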

How the results depend on the processing

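Over all alternatives the log2 fold change in Irp1-/- testes stayed between -3.11 and -2.92 for Dynlt1b and between -3.55 and -3.35 for Tmem181b-ps. Samples with the same replicate number did not vary together (correlations -0.01 to 0.0778), so the numbers were not treated as pairs. Irp1-/- and WT samples shared only replicate numbers 1 and 2, so a replicate block rested their contrast on these samples alone. With this block, 439 genes in place of 164 passed in Irp1-/- testes. Of the flanking genes 1, Rnaset2b, did (log2 fold change -0.41, adjusted p = 0.0349, edgeR), while Aco1 did not (log2 fold change -0.28, adjusted p = 0.314, edgeR). Leaving out single samples gave 55 (without Irp1-/- replicate 1) to 216 genes (without Irp1-/- replicate 2) in Irp1-/- testes, with 102 without Irp1-/- replicate 6, 84 without WT replicate 2 and 106 without WT replicate 4, and 118 (without Irp2-/- replicate 2) to 223 in Irp2-/- testes. In Irp1-/- testes the replicate block moved the log2 fold change of Dynlt1a from 0.047 to -0.022, of Dynlt1c from -0.115 to -0.179 and of Dynlt1f from -0.137 to -0.295. Dynlt1f was at -0.051 without Irp1-/- replicate 1, and Tmem181c-ps moved from -0.336 to -0.504 without WT replicate 1. Small log2 fold changes of copies in Irp2-/- testes also changed sign. Dynlt1a (highest 0.042 without WT replicate 1) was at -0.016 with the replicate block, -0.017 without Irp2-/- replicate 1, -0.008 without WT replicate 3 and -0.016 without WT replicate 4. Dynlt1c ranged from -0.032 without Irp2-/- replicate 1 to 0.063, and Dynlt1f from -0.168 to 0.056 without Irp2-/- replicate 2. Tmem181c-ps was at -0.162 without Irp2-/- replicate 2, -0.097 without WT replicate 1 and at most 0.324, and Tmem181a ranged from -0.001 without WT replicate 1 to 0.144. The causes were not tested. Tmem181c-ps and Tmem181b-ps in Irp1-/- testes rest on few counts.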

Other observations

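Over the 11 samples, the 5 genes most like the mean of Dynlt1b and Tmem181b-ps on the log2(CPM + 1) scale, out of 14979 genes, were Tbc1d2 (r = 0.977) and Map3k7 (r = 0.951) on chromosome 4, LOC100040786 (r = 0.969), which was not placed, Bub1 on chromosome 2 (r = 0.957) and Plekhh2 on chromosome 17 (r = 0.947). The size of their change differed. From the WT to the Irp1-/- mean, Tbc1d2 went from 22.36 to 4.64 CPM and LOC100040786 from 4.59 to 1.25 CPM. Map3k7 went from 61.64 to 48.61 CPM, Bub1 from 88.01 to 80.2 CPM and Plekhh2 from 170.0 to 134.6 CPM. The 5 genes with the most negative r were Gm3448 (r = -0.975) and Gm3417 (r = -0.973) on chromosome 17, Zfp462 on chromosome 4 (r = -0.96), Gm5800 (r = -0.959) and 1700001F09Rik (r = -0.947) on chromosome 14. Chromosome 4, which holds Tbc1d2, Map3k7 and Zfp462, is also the chromosome of Aco1, the gene knocked out in Irp1-/- mice. Whether their position bears on their levels was not tested. The values of all these genes are descriptions, since the samples fall apart by genotype and share their libraries.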
